A study of Mus musculus with 2 samples.

Results

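A block of 4742 probes of a mouse lncRNA array, named here for noncoding transcripts of the UCSC known-gene set, was examined in lung RNA of saline-treated and paraquat-treated mice. The block runs from probe ASMM9PARTA046767 to probe ASMM9PARTA051508 without control probes. Probe numbers, and no measured difference, chose the members, although both end probes belong to transcripts of the study's list of changed lncRNAs. For these probes the deposited files give numbers without transcript names, and the name of the block rests on 12 listed transcripts whose spot intensities matched exactly 1 probe inside it within 0.01. No listed transcript of another source fell inside. Outside fell 2 further UCSC transcripts of the list, at ASMM9PARTA046509 before the block and ASMM9PARTA051722 after it. The other probes of the array thus hold UCSC probes as well, and how many is not known. Along the probe numbers, the UCSC names of 3 of 11 neighbouring pairs were out of name order, so no other member could be named from its number. Each member had 1 spot on each array. After 9 members with a spot marked as an outlier were left out, 4733 remained, of 59625 probes in all. By the study the array also measures coding mRNAs, so shares over all probes are not those of lncRNAs alone.

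The control group was male BALB/c mice aged 8 weeks that were injected with saline on 5 days. The paraquat group was male BALB/c mice of the same age that received paraquat at 10 mg/kg into the abdomen once a day for 5 days. Lungs were taken on day 12, the labels name the lower lobe of the right lung, and RNA of 3 lungs was mixed for each group. Each pool was labelled with 1 dye and hybridized to 1 array, so no difference has a replicate array and no test was possible. In pooled whole tissue, fewer cells of a type and less RNA per cell cannot be told apart. The tissue was not checked against cell type markers, since no probe carries the symbol or RefSeq accession of a marker looked for.

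Long noncoding RNAs are transcripts without an evident protein-coding frame, and many are less abundant than messenger RNAs. The UCSC known-gene set was assembled from public mRNA and protein records, and it holds noncoding transcripts that overlap, oppose or neighbour coding genes, including RNAs that retain introns. Paraquat is a herbicide that is taken up by alveolar epithelial cells and produces superoxide by redox cycling, and it is used to injure the lung and induce fibrosis in mice.

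Shown here are the primers of uc009ktt.1, a named member also in the PCR panel, and a promoter window that matched 1 of them. They are given because the transcript was higher on the paraquat array and is listed beside Elavl1, the gene of an RNA-binding protein that stabilizes messenger RNAs. The study's primers for it are given from their 5′ ends.

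uc009ktt.1 forward primer: ggttccatctgcagtggttt

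uc009ktt.1 reverse primer: cccctacccttcagatccat

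Of 32851 mouse promoter windows from RefSeq (GRCm38.p6), the forward primer was found in 1, that of LOC108167518, an lncRNA gene on the plus strand, and the reverse primer was found in 0. The window is chr8:4327650-4327949, and capitals mark the forward primer at chr8:4327854-4327873, which ends 27 bases before the annotated start of that gene.

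LOC108167518 promoter window: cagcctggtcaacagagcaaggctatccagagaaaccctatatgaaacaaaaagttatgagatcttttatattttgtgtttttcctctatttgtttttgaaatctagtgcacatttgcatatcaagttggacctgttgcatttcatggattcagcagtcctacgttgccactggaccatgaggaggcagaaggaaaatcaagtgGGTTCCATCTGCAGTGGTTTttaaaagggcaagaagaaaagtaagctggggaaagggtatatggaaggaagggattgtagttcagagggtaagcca

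By start position in RefSeq, the genes at this place follow the order Timm44, Elavl1, Ccl25, LOC108167518 and Gm7434. The chemokine gene Ccl25 thus starts between Elavl1 and the lncRNA gene whose promoter window holds the forward primer. The array was designed on mm9, and the position of its own probe for uc009ktt.1 is not given in the files.

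To know how much of the block was measured, detection on each array was counted first. Of the 4733 members, 2942 (62.2%) were well above background by the scanner software's call (detected) in control lung and 2723 (57.5%) in paraquat lung, against 62.7% and 58.6% of all probes. Both arrays detected 2503 members (52.9%), at least 1 array detected 3162 (66.8%), and 1571 were detected on neither. The shares over all probes were 54.1% for both arrays and 67.2% for at least 1. The UCSC members were therefore detected nearly as often as the probes of the whole array.

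The members detected on both arrays were slightly dimmer than the array as a whole. Their median processed signal was 175 in control lung and 88.4 in paraquat lung, against 194 and 102 over all other probes detected on both. Lower signals on the paraquat array were thus shared by the whole array, and quantile normalization was used to put both arrays on the same distribution. After it, the median log2 difference (paraquat minus control) of the 2503 members was -0.07, against -0.04 over all 32274 probes detected on both arrays. It was positive for 1164 members and negative for 1338.

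The spread of the differences was also close to that of the array. The SD across members was 1.12 on the log2 scale, against 1.08 over all probes, and 1765 members (70.5%) lay within 2-fold, against 71.2%. Another 605 members lay between 2-fold and 5-fold. The log2 signals of members on the 2 arrays had a Pearson correlation across probes of 0.894 and a rank correlation of 0.839, against 0.917 and 0.869 over all probes. As a measure of technical spread, 15 reference genes with repeated spots on each array gave a median SD of 0.19 for the log2 difference between single spots, with a range of 0.137 to 1.26. This spread covers spots of the same RNA pool and not the spread between mice. In 14 of these genes every spot was well above background on both arrays, so it hardly covers dim spots.

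**Figure D1:**
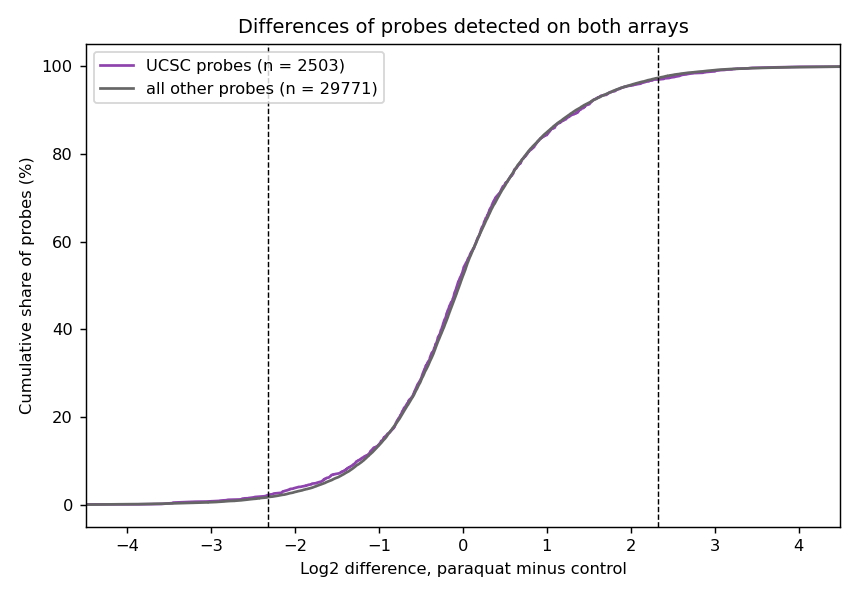
Cumulative share (%) of probes against their log2 difference, paraquat minus control, for 2503 UCSC probes and 29771 other probes detected on both arrays. Dashed lines mark 5-fold, and the curves run close together over the whole range.

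To count large differences, a threshold of 5-fold was applied, the cut-off of the study. Of the 3162 members detected on at least 1 array, 189 (5.98%) passed it with a higher signal in paraquat lung and 184 (5.82%) with a lower signal. Over all 40078 such probes of the array, 5.54% were higher and 4.56% were lower. Both shares of the UCSC members lay somewhat above those of the array, the lower share more so, and without replicate arrays no error can be put on that gap. The balance of directions moved with the scaling. A shift to a common 75th percentile gave 207 higher and 131 lower, no normalization gave 80 higher and 380 lower, and the authors' values gave 60 and 36 among the members they hold. The higher made up 61.2%, 17.4% and 62.5% of these members, against 64.6%, 19.2% and 72.2% over all probes.

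Many of these members were measured on 1 array only. When dim signals were raised to the lowest detected signal of their array, 108 members (3.42%) passed as higher and 74 (2.34%) as lower, against 3.07% and 2.04% of all probes. With detection required on both arrays, 78 of 2503 members (3.12%) passed as higher and 55 (2.20%) as lower, against 2.77% and 1.78%. Of these, 28 members were higher (1.12%) and 17 lower (0.679%) in each of 5 ways of processing (quantile normalization, 75th percentile shift, loess, normexp background and position correction), against 0.939% and 0.573% of all probes. The members' shares stayed near the array's shares under each rule.

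Members higher in paraquat lung were mostly dim in control lung, as choosing by the difference favours. The 78 that passed 5-fold with detection on both arrays had a median signal of 66.6 in control lung and 337 in paraquat lung. The 55 members that passed as lower had medians of 615 and 46.5.

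Some members were detected in a single group. The control array alone detected 439 members (9.28%, against 8.61% of all probes), with a median signal of 33.4 there. The paraquat array alone detected 220 members (4.65%, against 4.47%), with a median signal of 25.1. For these members only a bound could be given, the bright signal against the higher of the lowest detected signal and the dim signal of the member itself after normalization. Most bounds were small, with a median of 1.48-fold among the 439 and 2.21-fold among the 220. Of the 439, 385 had a bound above 1-fold. The highest bound was at least 21.1-fold among the 439 and at least 14.1-fold among the 220.

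The place of a member on the slide moved with its difference. The array has 164 columns of spots, and the members are scattered over them. In columns 1 to 64, 125 members (11.3% of those with a detected signal) passed 5-fold as higher in paraquat lung and 65 (5.88%) as lower. In columns above 80, 45 (2.61%) passed as higher and 100 (5.80%) as lower. The median log2 difference of members detected on both arrays was 0.35 in columns 1 to 64, 0.04 in columns 65 to 80 and -0.23 in columns above 80.

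The other probes of the array had a similar slope over the slide, with median log2 differences of 0.36, -0.01 and -0.20 in the same columns. Their shares at least 5-fold higher were 10.2%, 4.86% and 2.58%, and their shares at least 5-fold lower were 4.44%, 5.42% and 4.30%. Of the 220 members detected on the paraquat array alone, 148 (67.3%) lay in columns 1 to 64, and of the 439 detected on the control array alone, 125 (28.5%). The other probes were placed much alike. Of 2448 detected on the paraquat array alone, 1586 lay in these columns, and of 4697 detected on the control array alone, 1396. The part of this slope in the differences of single members was not tested.

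**Figure D2:**
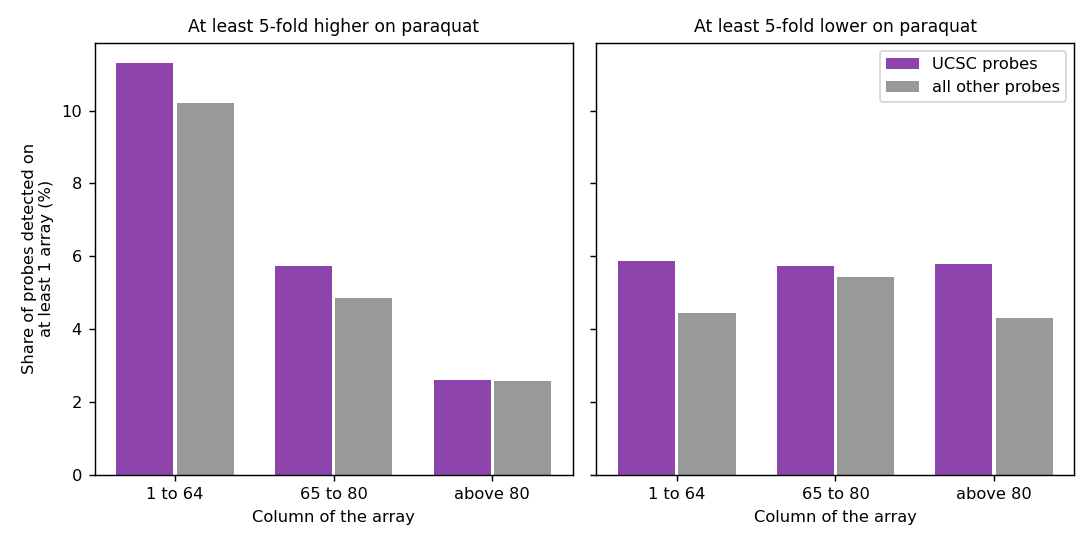
Share (%) of probes, among those with a detected signal, that differed 5-fold or more towards the paraquat array (left) or the control array (right), by column of the array, for UCSC probes and all other probes. The share of higher UCSC probes was 11.3% in columns 1 to 64 and 2.61% in columns above 80, and that of lower UCSC probes lay between 5.74% and 5.88%.

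To correct for position, each probe was set against the median of its 50 nearest detected probes within 1 log2 unit of signal. Of the 3162 members detected on at least 1 array, this left 130 higher by 5-fold or more and 157 lower. Of all 40078 such probes it left 1489 higher (3.72%) and 1631 lower (4.07%). Of the 78 members that were higher and detected on both arrays, 53 stayed at 5-fold or more, and of the 55 that were lower, 41 did. Within columns 1 to 64 the correction left 55 members higher (4.97%) and 90 lower (8.14%). Within columns above 80 it left 59 higher (3.42%) and 52 lower (3.01%). In both places the balance of directions was the reverse of that before the correction, so the correction did not make the columns alike. The other probes of the array turned the same way, with 4.21% higher and 6.74% lower in columns 1 to 64 and 3.24% and 2.21% in columns above 80.

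Neighbours in probe number did not resemble each other. Across 1343 pairs of members with adjacent numbers, both detected on both arrays, the correlation of normalized log2 signals was 0.025 within the control array and 0.022 within the paraquat array, and that of the log2 differences was 0.011. When the block was divided into 6 runs of probe numbers, the share of members higher by 5-fold or more lay between 4.91% and 7.07%, and that of lower members between 5.20% and 6.91%.

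Turning to single transcripts, the 12 listed members are described by the gene that the study's list pairs with each. The study chose them on these same 2 arrays for their change, so their differences are a description and no independent evidence of direction. For some listed members the study also reports PCR with biological replicates, and it presents them as up-regulated in paraquat lung. Those members are uc008dzl.1 and uc009ktt.1, which were also higher on the paraquat array. The PCR measurements were not used here. Errors given with signals are those of the scanner software for 1 spot. Of the 12, 11 had no outlier mark, 7 of them lower and 4 higher on the paraquat array, and all 11 were at least 5-fold changed.

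The transcript lowest in paraquat lung relative to control was uc007hdb.1 on chromosome 10, listed with Lyz2, the lysozyme gene of macrophages and alveolar type II cells. Its signal was 20183 ± 2018 in control lung and 1018 ± 102 in paraquat lung, a log2 difference of -3.86 (14.5-fold lower after normalization). It ranked 3 among the lower members detected on both arrays, and the difference stayed between -4.31 and -3.39 under 9 other ways of processing (other scalings, background steps, position correction and the authors' values). The transcript uc007kgm on chromosome 11 is listed with Ssh2, a phosphatase that activates cofilin. It gave 7947 ± 795 in control lung and 492 ± 49.3 in paraquat lung, a log2 difference of -3.45. Both were bright in control lung and stayed more than 5-fold lower under each of the 9 alternatives.

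A group of 3 bright or middling transcripts on chromosomes 4, 7 and 8 were also lower in paraquat lung, with the control signal given first. The transcript uc008vfy.1 on chromosome 4, listed with D4Wsu53e (now Rsrp1, an arginine- and serine-rich protein gene), gave 17123 ± 1712 and 1611 ± 161, a log2 difference of -3.02. The transcript uc009mqh on chromosome 8, listed with Itfg1, gave 1265 ± 127 and 85.8 ± 9.05, a log2 difference of -3.06. The transcript uc009ihm.1 on chromosome 7, listed with the bZIP factor gene Crebzf, gave 1818 ± 182 and 183 ± 18.5, a log2 difference of -2.54. Of these, uc008vfy.1 and uc009mqh were more than 5-fold lower in all 9 alternatives, and uc009ihm.1 in 6 of 9.

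The size of the difference of 2 more lower transcripts depended on the processing. The transcript uc007sgh.1 on chromosome 14 is listed with Thoc7, a subunit of the THO complex of mRNA export. It gave 292 ± 29.5 in control lung and 21.6 ± 3.57 in paraquat lung, close to the lowest detected signal of 13.2 there, a log2 difference of -2.89 that ranged from -3.76 to -1.52. The transcript uc008vzg.1 on chromosome 4 is listed with Plekhg5. It gave 9525 ± 952 and 1271 ± 127, a log2 difference of -2.45, and it was at least 5-fold lower in 4 of 9 alternatives. Both lay in columns above 80, where the median difference of members was negative, as did uc008vfy.1, uc009mqh and uc009ihm.1.

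**Figure D3:**
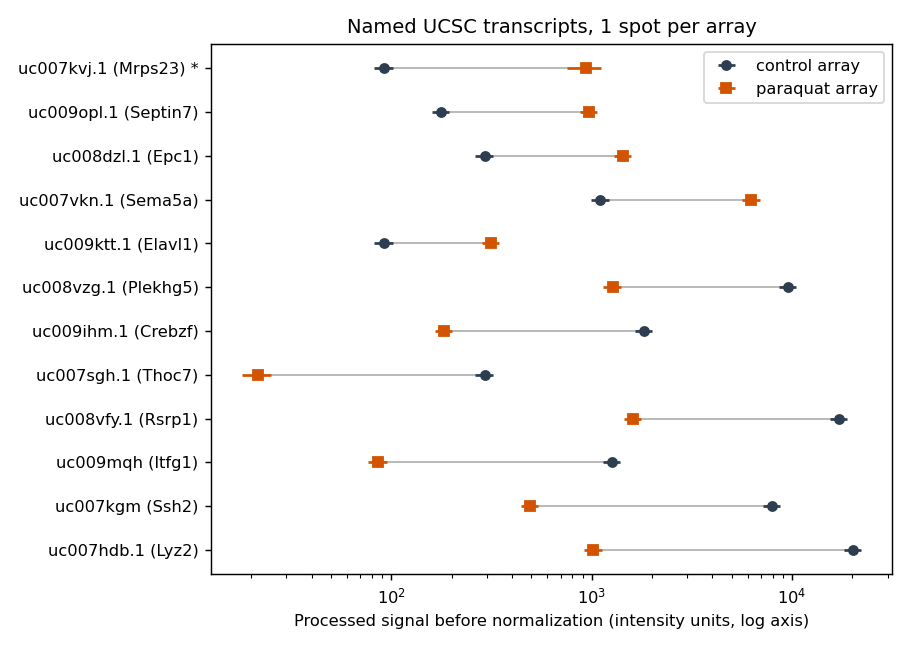
Processed signal before normalization (log axis) of the 12 listed UCSC transcripts on the control array (circles) and the paraquat array (squares), with the scanner software's error of 1 spot as bars. The gene listed with each is in parentheses, the asterisk marks the transcript with an outlier spot, and the 7 transcripts that were lower span 21.6 to 20183.

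Higher on the paraquat array were 4 listed transcripts without outlier marks, all dimmer on the control array than most of the lower ones. The transcript uc009opl.1 on chromosome 9, listed with the septin gene Septin7, gave 177 ± 18.1 in control lung and 969 ± 97 in paraquat lung, a log2 difference of 3.25. The transcript uc008dzl.1, listed with Epc1, a subunit of a histone acetyltransferase complex, gave 292 ± 29.4 and 1434 ± 143, a log2 difference of 3.06. The transcript uc007vkn.1 on chromosome 15, listed with the semaphorin gene Sema5a, gave 1104 ± 110 and 6258 ± 626, a log2 difference of 3.04. Both uc009opl.1 and uc007vkn.1 were over 5-fold higher in 9 of 9 alternatives, and uc008dzl.1 in 8.

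The transcript uc009ktt.1, whose forward primer match is shown above, had the smallest difference of the 4. It gave 91.7 ± 9.95 in control lung and 315 ± 31.6 in paraquat lung, a log2 difference of 2.67 (6.35-fold). Its spot lay in column 15, where other probes were also higher on the paraquat array, and after correction for position its log2 difference was 2.05 (4.14-fold). It was at least 5-fold higher in 5 of 9 alternatives.

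After correction for position, 7 of the 11 listed members stayed at 5-fold or more. The other 4 were uc009ktt.1, uc007sgh.1 (4.94-fold lower), uc009ihm.1 (4.67-fold lower) and uc008vzg.1 (3.75-fold lower). The transcript uc008dzl.1, in column 70, kept a log2 difference of 3.12.

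**Figure D4:**
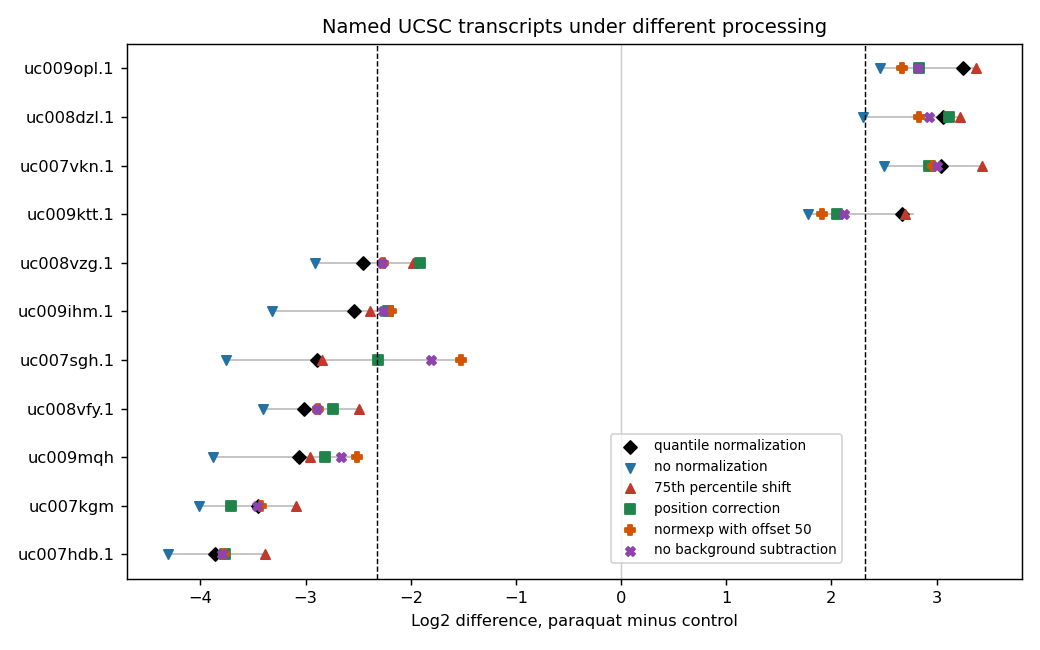
Log2 difference, paraquat minus control, of the 11 listed UCSC transcripts without outlier spots under quantile normalization and 5 of the alternatives, with a grey line over the range of all alternatives and dashed lines at 5-fold. The widest range towards 0 is that of uc007sgh.1, from -3.76 to -1.52.

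The 2 UCSC transcripts of the list that lie outside the block were lower as well. The transcript uc007ism.1, listed with Hnrnph1, gave 9277 in control lung and 1013 in paraquat lung, a log2 difference of -2.72. The transcript uc009rwm.1, listed with Pdcd6ip, gave 10325 and 1059, a log2 difference of -2.83.

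Larger differences than those of the listed transcripts occurred among members without a name. Highest relative to control was ASMM9PARTA048816, with 331 ± 33.3 in control lung and 11456 ± 1146 in paraquat lung, a log2 difference of 5.68 (51.2-fold). The probe ASMM9PARTA049670 followed, with 33 ± 5.09 and 692 ± 69.2, a log2 difference of 5.16. Over 9 alternatives their lowest values were 5.11 and 3.50.

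Lowest relative to control was ASMM9PARTA047122, with 4683 ± 468 in control lung and 69.3 ± 7.57 in paraquat lung, a log2 difference of -5.42 (42.7-fold). The probe ASMM9PARTA048273 gave 1533 ± 153 and 21.8 ± 3.83, a log2 difference of -5.39. ASMM9PARTA047122 ranged from -6.08 to -4.71 over 8 alternatives, since the authors' values do not hold it. ASMM9PARTA048273 ranged from -6.14 to -3.88 over 9. These 4 members were chosen as the largest that passed 5-fold in the 5 ways of processing above, and which transcripts they measure is not given in the files.

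**Figure D5:**
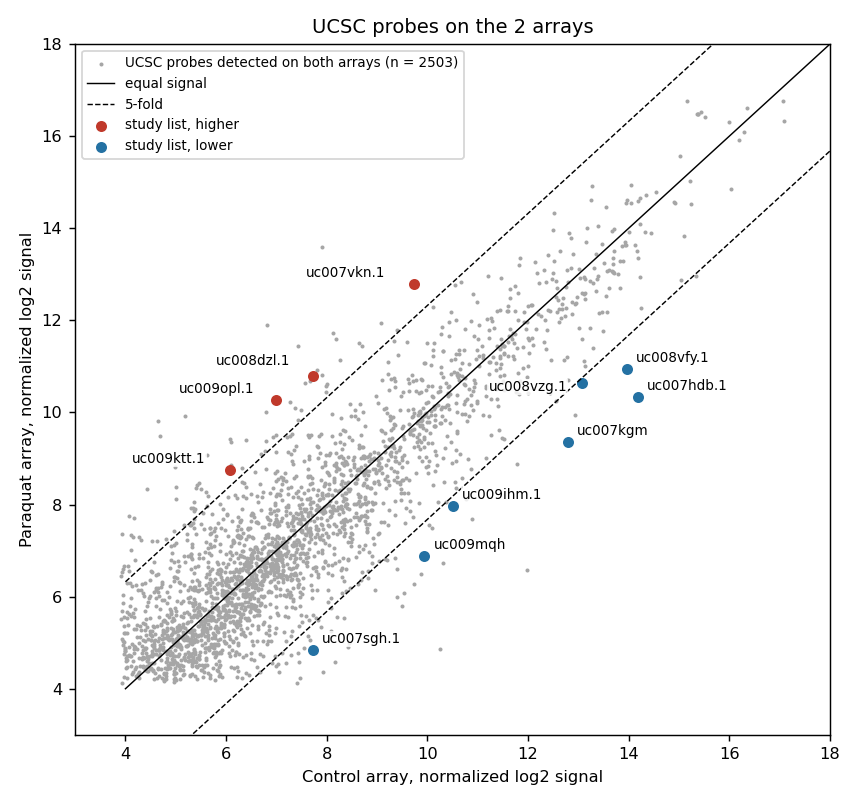
Normalized log2 signal on the paraquat array against the control array for 2503 UCSC probes detected on both, with the equal-signal line and dashed lines at 5-fold. The 4 listed transcripts that were higher are red and the 7 that were lower are blue, and unnamed members lie farther from the line in both directions.

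The brightest members did not reach 5-fold after quantile normalization. On the control array the brightest were ASMM9PARTA049648, with 141458 and 86278 on the paraquat array, and ASMM9PARTA050111, with 139158 and 111607. Their log2 differences of -0.75 and -0.31 turned positive under a 75th percentile shift, so they have no settled direction. On the paraquat array the brightest member was ASMM9PARTA050922, with 38378 in control lung and 111748 in paraquat lung, a log2 difference of 1.60, or 1.14 after correction for position. It passed 5-fold under 2 of 9 alternatives, with 2.46 after the 75th percentile shift and 2.37 after the median shift.

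The authors' own processed values were compared as a check of scale. They hold 2160 members (45.6%), and their differences correlated with those computed here at 0.998 over members, with a slope of 0.947. Of the members detected on both arrays, 400 have no value there.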

How the data were processed

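Per the labels and the study's methods, lung RNA of saline-treated and paraquat-treated mice was hybridized to 1 one-colour Agilent array per group, of a mouse lncRNA design on mm9, with 3 lungs mixed per array. The authors deposited spot intensities from Feature Extraction 10.7.3.1, background-subtracted and detrended but not normalized between arrays, and processed values on a log2 scale of 14331 probes, whose filter is not given in the sources used here. By the file contents, a multiplicative trend correction acted on the paraquat array only.

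Here outlier and control spots were dropped, log2 of the processed signal was averaged over the spots of a probe, and quantile normalization was run on 59625 probes (Python 3.11.15, pandas 2.3.3; limma 3.58.1 in R 4.3.3 for loess and normexp with offset 50). "Detected" means well above background by the scanner software. Differences are paraquat minus control. The signal floors were 19.4 (control) and 13.2 (paraquat). The number of arrays, 1 per group, limits all precision, and no test was run. Quantile normalization with the 5-fold rule was tried on simulated data, with large changes in bright members and no slope over the slide. The other steps were not tried this way.

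Names came from matching the intensities of the study's list of changed lncRNAs to probes; no value was taken from it. Members are named if listed by the study; otherwise the 2 largest rises and falls at 5-fold in 5 settings and the 2 brightest on each array are given by probe number. The members, lists and column limits were chosen with earlier results of these data known. Alternatives covered normalization, background, position, detection and the threshold. Associated mRNAs were not used here.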

Additional observations from a re-analysis of the deposited data

Results flagged for a closer look

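Members with an outlier spot stood outside the comparisons above, and 2 of the 9 differed by more than 5-fold. The transcript uc007kvj.1, listed with the mitochondrial ribosomal protein gene Mrps23, gave 92.1 ± 9.99 in control lung and 935 ± 181 in paraquat lung, where its spot was marked as an outlier. With the spot kept, its log2 difference was 4.13 (17.5-fold higher), larger than that of any other listed member that was higher. The probe ASMM9PARTA049917 gave 517 ± 51.8 and 3541 ± 354, a log2 difference of 3.42 (10.7-fold), in column 7 of the array. The lowest of the 9 differences was -0.99.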

How the results depend on the processing

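No paired analysis was possible because each group has 1 array. The counts of members at least 5-fold higher and lower (189 and 184) became 80 and 380 without normalization, 78 and 56 with quantile normalization over probes detected on both arrays, 28 and 19 with normexp, 34 and 23 without background subtraction, 60 and 36 in the authors' values, 45 and 100 in columns above 80 alone, 78 and 55 for detection on both arrays, and 108 and 74 with dim signals raised to the floor. They were 351 and 361 at 3-fold and 592 and 633 at 2-fold. Shares of the array past the threshold are given above for columns above 80, detection on both arrays and the floor. For the other settings none is given, so those counts describe the members only. The share of higher among the members past 5-fold was 50.7% (54.9% over all probes), 61.2% (64.6%) with the 75th percentile shift, 62.5% (72.2%) in the authors' values, 45.3% (47.7%) after position correction and 17.4% (19.2%) without normalization. The median difference was -0.862 without normalization, where the median of all probes was -0.83. The 75th percentile shift put the median of all probes at 0.09. Of the 11 listed members, 7 reached 5-fold with normexp, 7 without background subtraction and 7 after position correction. The probes ASMM9PARTA049648 and ASMM9PARTA050111 turned to 0.21 and 0.60 with the 75th percentile shift and to 0.11 and 0.51 with the median shift. Of 179 values of single probes under the alternatives, 98 moved by less than the spread of repeated spots and 77 by more with the same sign. Signals near background limit the dim members, which lack a measured difference where 1 array missed them. The causes were not tested.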
